A study of Homo sapiens with 7 samples.

Results

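The 249 protein-coding genes of chromosome 19 whose symbol starts with ZNF and a digit were read from GENCODE 44 on hg38, where they make up 249 of 20033 protein-coding genes and leave 1227 other protein-coding genes on chromosome 19. Members were taken by symbol, chromosome and gene type, and the rule has no threshold on a measured value. For each gene the start site, the 5′ end of the annotated gene, was placed inside or outside the domains of 5 deposited sets from ChIP-seq of H3K9me3 and H3K27me3. The cells were HCT116, a human colorectal carcinoma line, in the form of Clone 3 and Clone 6, each 1 clonal line with an integrated doxycycline-inducible shRNA against UHRF1, a reader of H3K9 methylation and cofactor of DNMT1. All were baseline cultures grown for 14 days without doxycycline, so the shRNA had not been induced in any group. The sets were H3K9me3 of Clone 3 (2 samples), H3K27me3 of Clone 3 (2 samples), H3K27me3 of Clone 6 (2 samples), and the domains of each mark shared by both clones. An input of Clone 3 (1 sample) was also sequenced. H3K9me3 of Clone 6 alone was not analysed here and enters only through the shared set.

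Most ZNF genes encode proteins with a row of C2H2 zinc fingers, each finger reading a few bases of DNA. The majority on chromosome 19 also carry a Krüppel-associated box (KRAB), which recruits TRIM28 and through it SETDB1, the enzyme that writes H3K9me3, and many of these proteins silence transposable elements. The family grew by tandem duplication, so its genes stand in clusters, and the clusters themselves are known as carriers of broad H3K9me3. H3K27me3 is written by Polycomb repressive complex 2 and typically covers developmental regulators.

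Start-site windows of 6 members are printed with their CpGs in capitals, since CpG content of the start site is one of the features compared here and the 6 genes stand for the main positions relative to the domains. Each window runs from 250 bases before to 50 bases after the RefSeq start on GRCh38.p14 and is written 5′ to 3′ on the strand of the gene. ZNF91 (chr19:23395422-23395721, minus strand, 11 CpGs) lay deepest inside an H3K9me3 domain, and its product represses SVA elements. ZNF85 (chr19:20923001-20923300, plus strand, 9 CpGs) lay in the same cluster, outside every domain, in an interval between domains. ZNF808 (chr19:52527418-52527717, plus strand, 29 CpGs), required for human pancreas development, lay inside the domain that holds most members. ZNF180 (chr19:44500473-44500772, minus strand, 31 CpGs) started closest to a domain edge on its outer side. ZNF536 (chr19:30225342-30225641, plus strand, 21 CpGs), a regulator of neuronal differentiation, was the member in H3K27me3. ZNF358 (chr19:7515853-7516152, plus strand, 32 CpGs) was a scattered member outside every domain.
ZNF91: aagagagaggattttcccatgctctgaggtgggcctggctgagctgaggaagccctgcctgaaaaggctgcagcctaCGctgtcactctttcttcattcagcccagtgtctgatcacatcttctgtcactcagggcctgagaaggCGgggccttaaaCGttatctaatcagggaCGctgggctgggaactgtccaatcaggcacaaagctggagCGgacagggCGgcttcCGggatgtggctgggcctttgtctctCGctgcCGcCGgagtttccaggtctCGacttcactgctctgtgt
ZNF85: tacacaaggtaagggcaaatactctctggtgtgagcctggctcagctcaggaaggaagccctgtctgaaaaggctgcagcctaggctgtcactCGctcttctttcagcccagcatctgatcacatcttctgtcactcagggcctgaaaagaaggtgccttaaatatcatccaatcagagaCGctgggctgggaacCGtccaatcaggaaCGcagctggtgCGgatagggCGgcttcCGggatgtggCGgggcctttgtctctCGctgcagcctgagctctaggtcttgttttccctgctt
ZNF808: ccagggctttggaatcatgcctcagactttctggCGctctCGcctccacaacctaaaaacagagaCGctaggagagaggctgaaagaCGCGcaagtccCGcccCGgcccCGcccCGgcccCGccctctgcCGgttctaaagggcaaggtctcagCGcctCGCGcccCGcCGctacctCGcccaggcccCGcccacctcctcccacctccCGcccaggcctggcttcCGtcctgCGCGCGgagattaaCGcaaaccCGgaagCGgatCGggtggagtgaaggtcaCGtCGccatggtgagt
ZNF180: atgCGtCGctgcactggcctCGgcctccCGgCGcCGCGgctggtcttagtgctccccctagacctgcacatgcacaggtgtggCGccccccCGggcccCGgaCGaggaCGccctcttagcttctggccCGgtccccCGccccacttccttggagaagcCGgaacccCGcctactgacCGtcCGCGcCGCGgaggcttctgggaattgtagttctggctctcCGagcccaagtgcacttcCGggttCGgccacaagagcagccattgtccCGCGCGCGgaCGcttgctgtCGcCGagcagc
ZNF536: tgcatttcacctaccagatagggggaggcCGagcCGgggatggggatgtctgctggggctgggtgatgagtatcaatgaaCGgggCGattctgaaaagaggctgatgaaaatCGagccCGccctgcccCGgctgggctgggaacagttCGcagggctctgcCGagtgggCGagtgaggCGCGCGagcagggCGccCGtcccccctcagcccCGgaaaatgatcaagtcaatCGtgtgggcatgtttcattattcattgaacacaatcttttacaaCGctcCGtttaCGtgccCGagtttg
ZNF358: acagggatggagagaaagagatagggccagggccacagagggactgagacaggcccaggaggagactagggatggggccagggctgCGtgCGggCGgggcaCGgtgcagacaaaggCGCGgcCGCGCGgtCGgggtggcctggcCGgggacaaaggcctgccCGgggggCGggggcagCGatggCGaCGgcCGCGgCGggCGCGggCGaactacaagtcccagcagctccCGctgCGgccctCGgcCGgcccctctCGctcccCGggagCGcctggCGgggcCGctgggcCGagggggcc
The ZNF91 and ZNF85 windows shared an unbroken run of 32 bases, and 110 of the 300 bases of the ZNF91 window (36.7%) lay in words of 12 bases also found in the ZNF85 window. Between the other pairs of these 6 windows the longest shared run was 8 to 14 bases. The pair with the long shared run had 1 gene inside a domain and 1 outside. It was the only pair from the same cluster and was picked to show both positions, so this split followed from the choice.

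The ZNF genes of chromosome 19 lay in H3K9me3 domains and almost never in H3K27me3 domains. In the Clone 3 H3K9me3 set 173 of the 249 start sites (69.5%) were inside a domain, where the background over all protein-coding genes was 3.35% and that over the other protein-coding genes of chromosome 19 was 3.91%. In the clone-shared H3K9me3 set 172 were inside (69.1%), beside 3.24% of all and 3.91% of the other chromosome 19 genes. The H3K27me3 sets went the other way, with 1 member inside in each (0.402%), the same gene every time, ZNF536. The background was 6.44% of all and 4.32% of the other chromosome 19 genes in Clone 3, 7.97% and 6.52% in Clone 6, and 5.32% and 4.07% in the shared set. No member was in domains of both marks at its start site, and 75 members were in no domain of any set. ZNF genes of other chromosomes were inside the Clone 3 H3K9me3 domains in 39 of 266 cases (14.7%), above the 3.35% background and below the share on chromosome 19. They too were below the background in H3K27me3, with 3 inside in Clone 3 (1.13%), 6 in Clone 6 (2.26%) and 3 in the shared set (1.13%). The members share domains and are not replicates of each other, and each set is already merged over its samples, so these counts carry no replicate error and no p-value.

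**Figure D1:**
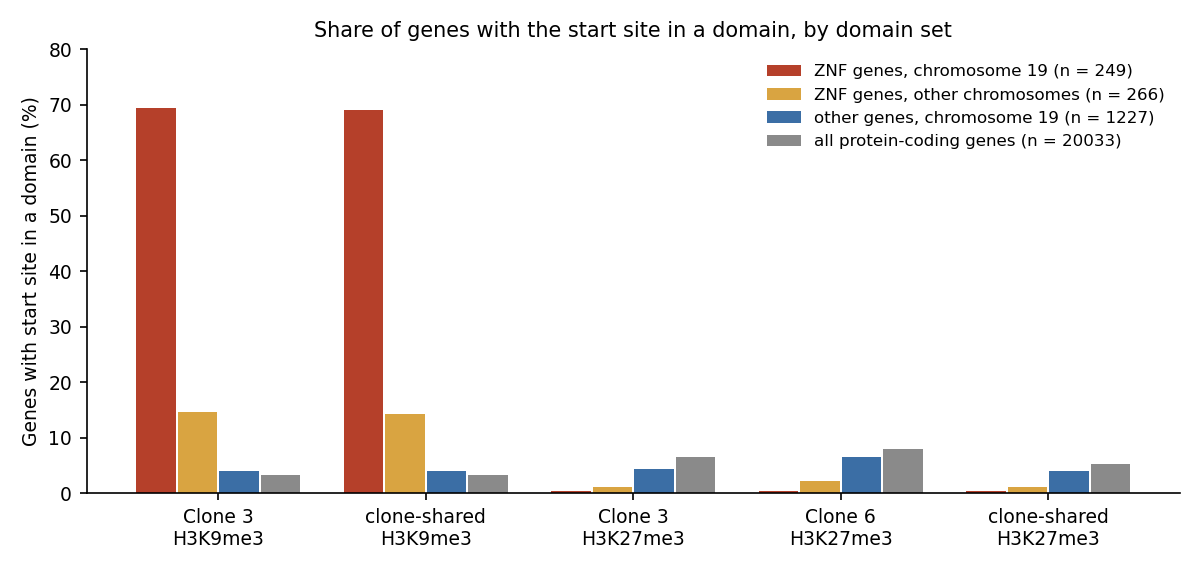
Bars give the percentage of genes whose start site lay in a domain of each of the 5 sets, for ZNF genes of chromosome 19 (n = 249), ZNF genes of other chromosomes (n = 266), other protein-coding genes of chromosome 19 (n = 1227) and all protein-coding genes (n = 20033). The ZNF genes of chromosome 19 reach 69.5% and 69.1% in the H3K9me3 sets and 0.402% in each H3K27me3 set.

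Position along the chromosome was described by arm and cluster. The arms were divided between ZNF254 and UQCRFS1, the longest distance between neighbouring protein-coding start sites on the chromosome (5.18 Mb), which left 85 members on the p arm and 164 on the q arm. The shares inside the Clone 3 H3K9me3 domains were alike, 60 of 85 (70.6%) on the p arm and 113 of 164 (68.9%) on the q arm. Runs of at least 5 members with neighbouring start sites at most 500 kb apart formed 10 clusters, 4 on the p arm and 6 on the q arm, with 235 members in all. Of the clustered members 172 were inside (73.2%), against 1 of the 14 scattered members (7.14%). The 3 members whose symbols join neighbouring genes (readthrough genes) overlap other members and were counted as annotated.

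**Figure D2:**
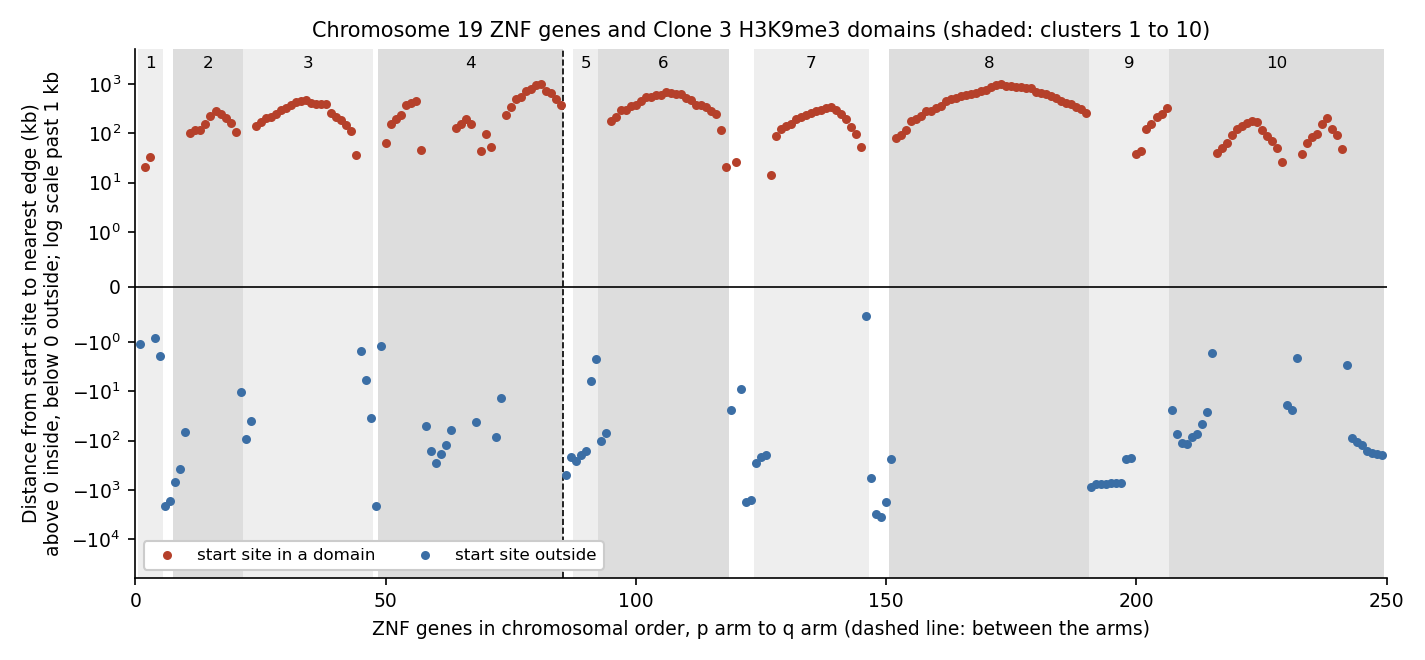
Each point is 1 of the 249 ZNF genes in chromosomal order, and the vertical axis gives the distance in kb from its start site to the nearest Clone 3 H3K9me3 domain edge, positive inside and negative outside, on a log scale beyond 1 kb. The shaded blocks are clusters 1 to 10. The points inside form arches in the domains with many members, and no point inside lies within 10 kb of an edge.

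The domains behind these counts were few and long. Chromosome 19 held 20 Clone 3 H3K9me3 domains with a total of 14.63 Mb, or 25.0% of its gap-free sequence, and 14 of them held a member. The median length of those 14 was 631 kb, against 140 kb over the whole set. Longer domains are more likely to hold a start site, so a difference in this direction is partly built into the choice. The 3 domains with most members, of 39, 24 and 21, held 84 of the 173 inside. The remaining 6 domains of the chromosome, among them those of 1864 kb and 1420 kb between ZNF254 and ZNF507, held no member start site. Across the chromosome 99.5% of the domain length was also in the clone-shared set.

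On the p arm the first cluster, ZNF554 to ZNF77, had 2 of 5 members inside, ZNF555 and ZNF556, in a domain of 79.0 kb (chr19:2821001-2900000). ZNF554, ZNF57 and ZNF77 started just outside this domain or the domain of 38.0 kb that follows it. The second cluster, ZNF414 to ZNF846, had 10 of 14 inside a domain of 575.0 kb (chr19:9208001-9783000). These were ZNF699, ZNF559, ZNF559-ZNF177, ZNF177, ZNF266, ZNF560, ZNF426, ZNF121, ZNF561 and ZNF562. Its outside members were ZNF414, ZNF558 and ZNF317 on the telomeric side and ZNF846 on the centromeric side. The third cluster, ZNF653 to ZNF490, had 21 of 26 inside a domain of 951.0 kb (chr19:11599001-12550000). The run inside was ZNF823, ZNF441, ZNF491, ZNF440, ZNF439, ZNF69, ZNF700, ZNF763, ZNF433, ZNF878, ZNF844, ZNF20, ZNF625-ZNF20, ZNF625, ZNF136, ZNF44, ZNF563, ZNF442, ZNF799, ZNF443 and ZNF709. ZNF653 and ZNF627 stood before it, and ZNF564, ZNF791 and ZNF490 after it. In each of these clusters the inside members thus formed a single unbroken run with the outside members at its flanks.

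The fourth cluster, ZNF101 to ZNF254, is the pericentromeric group of the p arm, and its 37 members all carried a KRAB-like box, here a match of the translated protein to a pattern of conserved residues of the KRAB A box. Here 27 of 37 (73.0%) were inside, spread over 4 domains. The first (chr19:19670001-20612000) held ZNF14, ZNF506, ZNF253, ZNF93, ZNF682, ZNF90, ZNF486 and ZNF737, of which ZNF93 is known as a repressor of LINE-1 elements. The second (chr19:21204001-21648000) held ZNF708, ZNF738, ZNF493 and ZNF429. The third (chr19:21809001-22106000) held ZNF43, ZNF208 and ZNF257. The fourth (chr19:22300001-24398000), the longest domain of the chromosome at 2098 kb, held ZNF98, ZNF492, ZNF99, ZNF723, ZNF728, ZNF730, ZNF724, ZNF91, ZNF675, ZNF681, ZNF726 and ZNF254. It ranked 35 of 567 in the set by the lower of the 2 deposited scores, the highest rank of any domain with a member, although the scale of those scores is not given in the sources used here. The start site of ZNF91 was 1000 kb from the nearest edge, the deepest of all members.

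On the q arm the cluster nearest the centromere, ZNF302 to ZNF792, had 0 of its 5 members inside. ZNF302, ZNF181, ZNF599, ZNF30 and ZNF792 all encode a KRAB-like box, and a domain of 29.0 kb (chr19:34933001-34962000) lay between the start sites of ZNF30 and ZNF792 and covered 66.62% and 71.7% of their gene bodies. The next cluster, ZNF146 to ZNF573, was the reverse, with 24 of 26 inside 1 domain (chr19:36316001-37838000, 1522 kb). They were ZNF566, ZNF260, ZNF382, ZNF529, ZNF461, ZNF567, ZNF850, ZNF345, ZNF790, ZNF829, ZNF568, ZNF420, ZNF585A, ZNF383, ZNF585B, ZNF875, ZNF527, ZNF570, ZNF569, ZNF793, ZNF540, ZNF571, ZNF607 and ZNF573. ZNF146, which encodes fingers without other known domains, and ZNF565 were outside. The cluster ZNF575 to ZNF180 had 19 of 23 inside (chr19:43813001-44500000). That run was ZNF283, ZNF404, ZNF45, ZNF221, ZNF155, ZNF230, ZNF222, ZNF223, ZNF284, ZNF224, ZNF225, ZNF234, ZNF226, ZNF227, ZNF233, ZNF235, ZNF112, ZNF285 and ZNF229, where ZNF224 is known as a repressor of the aldolase A gene. ZNF575, ZNF576 and ZNF428 preceded the domain, and ZNF180 followed it.

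The cluster ZNF175 to ZNF331 had the highest share, 39 of 40 (97.5%), all in the domain that held most members (chr19:51812001-53772000, 1960 kb). In order these were ZNF577, ZNF649, ZNF613, ZNF350, ZNF615, ZNF614, ZNF432, ZNF841, ZNF616, ZNF836, ZNF766, ZNF480, ZNF610, ZNF880, ZNF528, ZNF534, ZNF578, ZNF808, ZNF701, ZNF83, ZNF611, ZNF600, ZNF28, ZNF468, ZNF320, ZNF888, ZNF816-ZNF321P, ZNF816, ZNF160, ZNF415, ZNF347, ZNF665, ZNF677, ZNF845, ZNF525, ZNF765, ZNF761, ZNF813 and ZNF331. ZNF350 is known as a partner of BRCA1, and ZNF331 as an imprinted gene. ZNF175 was the exception, outside on the centromeric side.

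The last clusters of the q arm were more mixed. ZNF628 to ZNF835 had 7 of 16 inside (chr19:56355001-57167000), namely ZNF582, ZNF583, ZNF667, ZNF471, ZNF470, ZNF71 and ZNF835. The 9 outside, ZNF628, ZNF579, ZNF524, ZNF865, ZNF784, ZNF580, ZNF581, ZNF787 and ZNF444, formed 1 run, and 0 of them had a KRAB-like box. ZNF264 to ZNF446 at the end of the chromosome, the cluster with most members, had 23 of 43 inside 2 domains. The first (chr19:57437001-57796000) held ZNF772, ZNF419, ZNF773, ZNF549, ZNF550, ZNF416, ZNF530, ZNF134, ZNF211, ZNF551, ZNF154, ZNF671, ZNF776 and ZNF586. The second (chr19:57852001-58276000) held ZNF814, ZNF417, ZNF418, ZNF256, ZNF606, ZNF135, ZNF329, ZNF274 and ZNF544. ZNF274 binds the 3′ ends of ZNF genes and brings TRIM28 and SETDB1 to them. ZNF582, ZNF154 and ZNF671 are known for promoter methylation in tumours. Before the first domain stood ZNF264, ZNF805, ZNF460, ZNF543, ZNF304, ZNF547, ZNF548, ZNF17 and ZNF749, all 9 with a KRAB-like box. They lay in a break of 270 kb that follows the domain of ZNF582 to ZNF835. After the second domain stood ZNF8, ZNF497, ZNF837, ZNF584, ZNF132, ZNF324B, ZNF324 and ZNF446, 5 of 8 with a KRAB-like box.

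**Figure D3:**
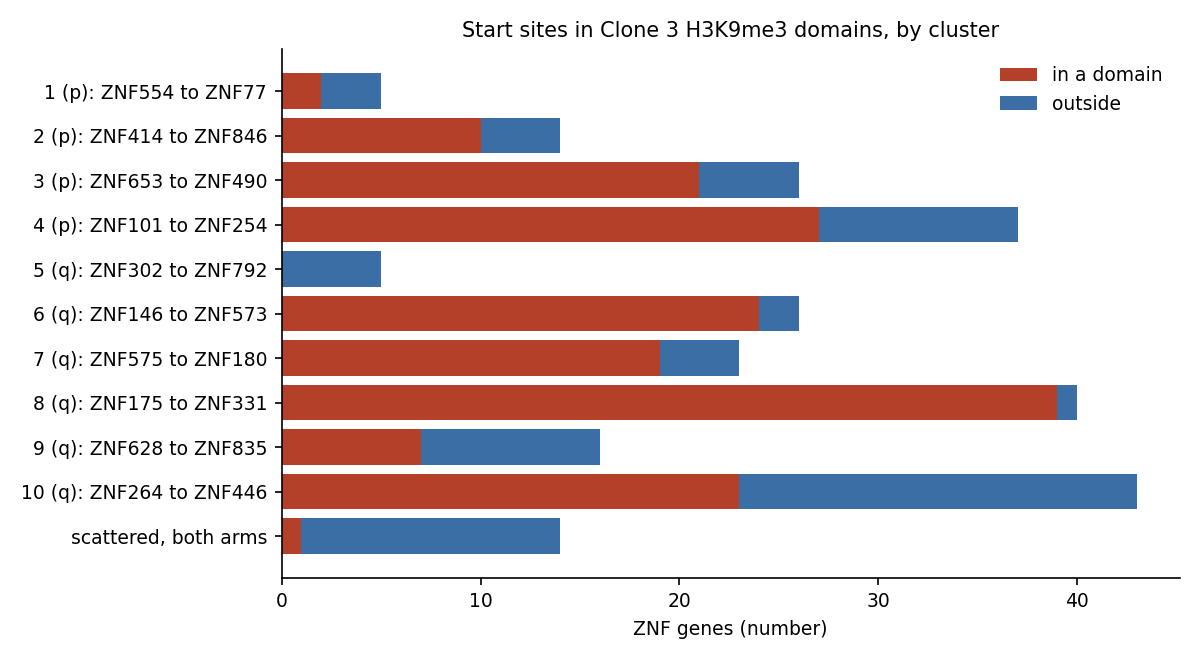
Bars give the number of ZNF genes in each of the 10 clusters and among the scattered genes, split into those with the start site in a Clone 3 H3K9me3 domain and those outside. The inside share runs from 0 of 5 in ZNF302 to ZNF792 up to 39 of 40 in ZNF175 to ZNF331, and is 1 of 14 among the scattered genes.

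The 76 genes left outside fell into 4 positions. Of these, 46 were at the flanks of a cluster that had members inside, and 12 were in gaps with members of the same cluster inside on both sides. Another 5 made up the cluster with 0 inside, and 13 were scattered. The scattered ones were ZNF557, ZNF358 and ZNF333 on the p arm and ZNF536, ZNF507, ZNF546, ZNF780A, ZNF574, ZNF526, ZNF296, ZNF541, ZNF114 and ZNF473 on the q arm. The scattered gene inside a domain was ZNF780B, in a domain of 74.0 kb (chr19:40008001-40082000). It was also the gene that separated the H3K9me3 sets, because the shared part of its domain was 48.0 kb and ended 0.231 kb before its start site, a distance below the step of the deposited bounds. The shared set therefore missed its start site while covering 99.17% of its gene body.

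The gaps described next have members inside on both sides. Shorter breaks next to a domain without a member held ZNF57 (5 kb, before chr19:2905001-2943000) and ZNF564 (15 kb, before chr19:12565001-12605000), and these genes are counted at the cluster flanks. Of the 4 gaps 3 were in the pericentromeric cluster of the p arm. The longest (chr19:20612001-21204000, 592.0 kb) held ZNF626, ZNF66, ZNF85, ZNF430, ZNF714 and ZNF431. The next (chr19:21648001-21809000, 161.0 kb) held ZNF100, and another (chr19:22120001-22300000, 180.0 kb) held ZNF676 and ZNF729. On the q arm a gap of 56.0 kb (chr19:57796001-57852000) held ZNF552, ZNF587B and ZNF587. All 12 genes had a KRAB-like box. The assembly has no undetermined bases in these gaps. The p-arm gaps had 8.8, 10.3 and 7.16 CpGs per kb in that order, and 57.3%, 45.8% and 60.7% of their CpGs were low-density, meaning at least 20 bp from the neighbouring CpGs. The 4 domains with members in the same cluster had 9.06 to 11.1 CpGs per kb and 47.1% to 52.1% low-density CpGs, so the ZNF100 gap was within the range of the domains on the first measure and below it on the second, and the other gaps of the cluster were poorer in CpGs. The q-arm gap had 17.0 CpGs per kb and 41.0% low-density CpGs, beside 13.5 per kb and 41.0% in the domain before it and 18.5 per kb and 37.9% in the domain after it. Words of 50 bases that occur again on chromosome 19 started at 5.44%, 6.97% and 7.89% of positions in the p-arm gaps, in the same order. The 4 domains with members in that cluster had 4.16% to 7.56%. The q-arm gap had 16.5%, beside 4.09% in the domain before it and 6.37% in the domain after it. Over all domains with a member the share was 6.05%, and over chromosome 19 as a whole it was 9.25%, above each of the p-arm gaps. Short reads are placed with less certainty in repeated sequence, and its part in the gaps was not tested.

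Where a domain edge lay close to a member's start site, the start site was on the outer side. Of the 40 edges on the chromosome, 16 had a protein-coding start site within 10 kb outside, and at 13 of these the nearest one was a member's. Within 10 kb of an edge there were 13 members outside and 0 inside, and within 2 kb there were 7 outside and 0 inside. The other protein-coding genes of chromosome 19 were placed likewise, with 4 outside and 0 inside within 10 kb and 2 outside and 0 inside within 2 kb. Over all protein-coding genes, the members included, the counts were 65 outside and 25 inside within 10 kb, and 31 outside and 4 inside within 2 kb. The members just outside were ZNF180 at 0.524 kb, ZNF57 at 0.928 kb, ZNF554 at 1.133 kb, ZNF101 at 1.205 kb and ZNF564 at 1.542 kb. Those just inside were ZNF283 at 14.321 kb, ZNF555 at 20.437 kb, ZNF573 at 20.701 kb, ZNF780B at 25.77 kb and ZNF586 at 26.346 kb. The bounds of the Clone 3 H3K9me3 set are whole kb, and 74.5% of them are multiples of 2 kb, so a distance of 1 to 2 kb is at the limit of their resolution. Inside members lay a median of 244 kb from an edge (14.3 to 1000 kb), and outside members a median of 119 kb (0.524 to 3540 kb).

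Gene bodies gave the same boundary another shape. Of the 13 outside members within 10 kb, 11 had more than 50% of the annotated gene body in a domain, with the start site outside. Transcription was not measured. The share was 97.99% for ZNF180, 94.11% for ZNF564, 93.28% for ZNF554, 91.81% for ZNF101 and 76.79% for ZNF57. ZNF791 and ZNF8 pointed away from the domain and had none of the body in it. Over all 76 outside members 17 had part of the body in a domain, and the same 17 had their 3′ end in one. Among the 173 inside members 168 lay in a domain over the whole body. The 5 exceptions, ZNF43, ZNF577, ZNF586, ZNF814 and ZNF544, ran out of a domain at the 3′ end. The last coding exon, which in this family usually encodes the fingers, was in a domain in 172 of the 173 inside members, ZNF43 being the exception, and in 16 of the 76 outside members.

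**Figure D4:**
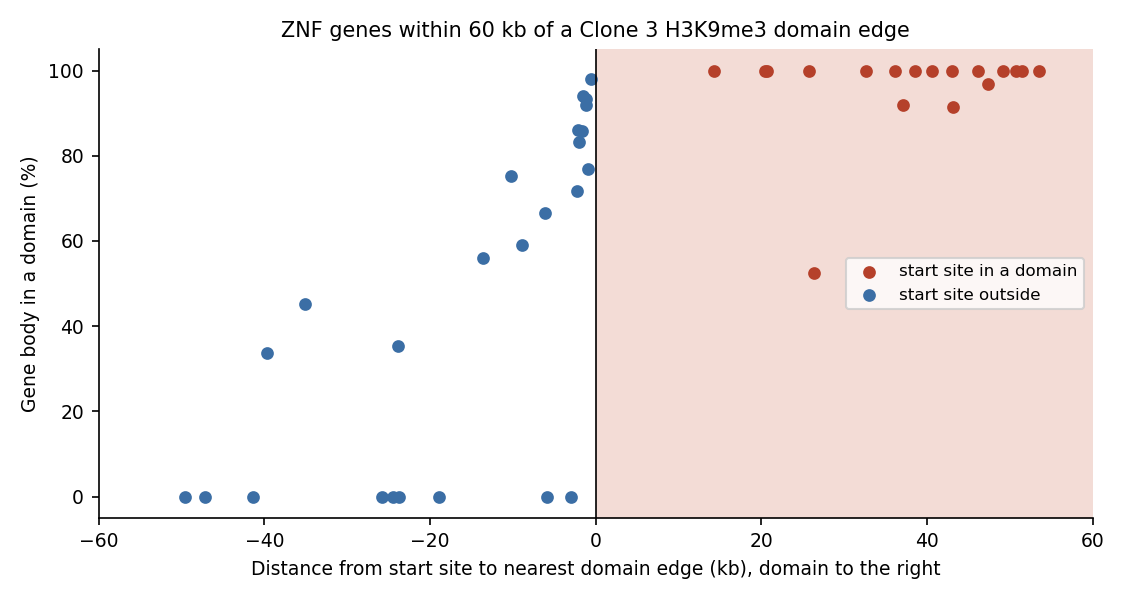
Points are the ZNF genes whose start site lay within 60 kb of a Clone 3 H3K9me3 domain edge, 18 inside and 25 outside, with the signed distance to the edge in kb on the horizontal axis and the percentage of the gene body in a domain on the vertical axis. The strip from 0 to 10 kb inside is empty, while 13 genes sit in the 10 kb outside, 11 of them with more than 50% of the body in a domain.

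What the proteins share was read from the coding sequence, which the sorting by start site did not use. A KRAB-like box was found in 214 of the 249 members, and 165 of these 214 (77.1%) were inside the Clone 3 H3K9me3 domains. Of the 35 members without one, 8 were inside (22.9%), namely ZNF121, ZNF491, ZNF260, ZNF345, ZNF83, ZNF835, ZNF134 and ZNF329. Position went along with this, since 208 of the 214 were clustered against 27 of the 35. Within clusters the shares were 164 of 208 (78.8%) with and 8 of 27 (29.6%) without a KRAB-like box, and among scattered members 1 of 6 (16.7%) and 0 of 8. Divergent boxes can escape the pattern, and it left ZNF180 and ZNF473 unmatched, for example. Both were outside, and misses of this kind widen the contrast between the shares. How many more of the 35 have a box that the pattern missed was not counted. The pattern was also met by 19 of 1183 other proteins of the chromosome with no finger match.

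Fingers were counted as 2 cysteines 2 to 4 residues apart, 12 residues, and 2 histidines 3 to 5 apart. The median was 13 matches inside and 11 outside. Among proteins with a KRAB-like box the medians were 13 inside and 12 outside, and among those without one 12.5 inside and 7 outside. ZNF208 had most matches (36) and was inside, and ZNF729 followed with 34 and was outside, in a gap. Gene length had a median of 28.3 kb inside and 17.5 kb outside. Among genes with a KRAB-like box the medians were 28.5 kb and 21.8 kb, and among those without one 20.9 kb and 10.6 kb. In the pericentromeric p-arm cluster the order was the other way, with 35.9 kb inside and 38.1 kb outside, and the 12 genes in gaps had a median of 35.2 kb. Members on the minus strand were inside in 90 of 115 cases (78.3%) and those on the plus strand in 83 of 134 (61.9%). Neighbouring members often share both strand and position, as ZNF264 to ZNF749 do, all on the plus strand and outside. The strand shares were not split by cluster or counted for other genes, so they show no effect of strand itself.

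**Figure D5:**
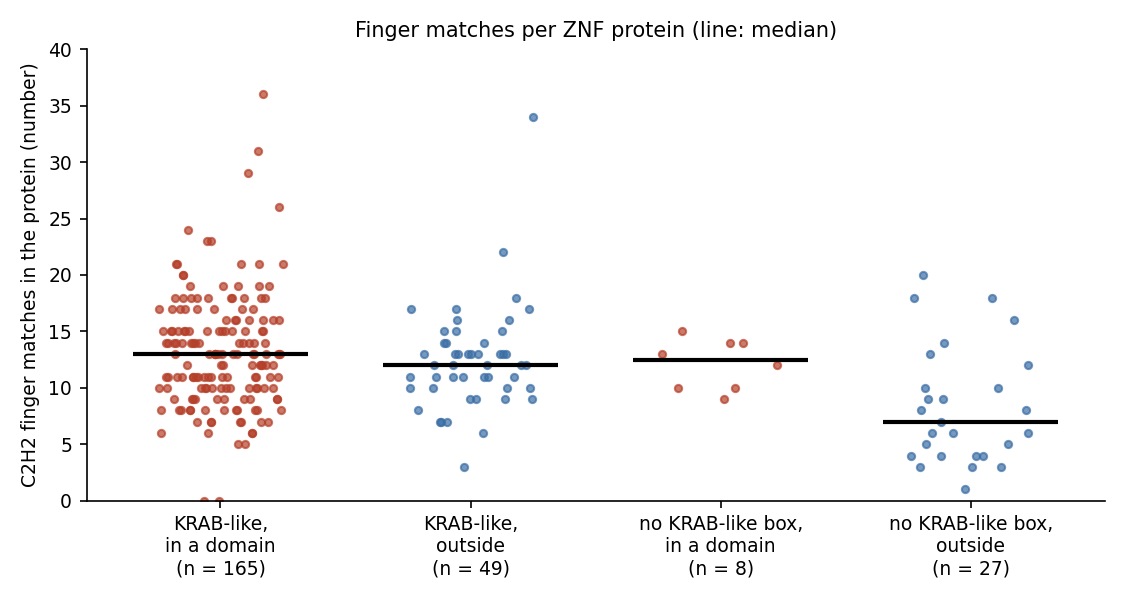
Points are single ZNF genes and give the number of C2H2 finger matches in the protein, grouped by KRAB-like box and by whether the start site lay in a Clone 3 H3K9me3 domain, with the line at the median. The medians are 13 and 12 for KRAB-like proteins inside and outside, and 12.5 and 7 for those without the box.

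CpG content of the start-site window differed between clusters, with medians from 10 to 29.5, and overlapped between the inside and outside genes. RefSeq windows matched 218 of the 249 members by symbol. The median was 19 CpGs per window inside (n = 149) and 23 outside (n = 69), beside 22 over 15345 protein-coding genes. The pericentromeric p-arm cluster had a median of 10, the lowest of the 10 clusters, and there the median was 10 both inside (n = 21) and outside (n = 8). The windows of ZNF91 and ZNF85 printed above, with 11 and 9 CpGs, are examples of each. The cluster ZNF628 to ZNF835 had the highest median, 29.5. Single genes ran from 2 CpGs in ZNF404 to 49 in ZNF541. ZNF667, with 42 CpGs, was the richest of the inside members. The 13 outside members near an edge had a median of 22.5 (n = 12), including the 31 CpGs of ZNF180.

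ZNF536 was the single member in H3K27me3. Its start site lay 89.891 kb inside a Clone 3 H3K27me3 domain (chr19:30135001-30716000) and 168.891 kb inside a Clone 6 H3K27me3 domain (chr19:30056001-30698000). The part shared by the clones ran from 30135001 to 30698000. At 489 kb it is the longest of the outside genes, and the last 0.32% of its body, at the 3′ end, reached into an H3K9me3 domain (chr19:30712001-32132000) in which no member starts and TSHZ3, another zinc finger gene of development, does. Its window is printed above with 21 CpGs, and its protein had 10 finger matches and no KRAB-like box. ZNF175 started 1.28 kb outside an H3K27me3 domain in every one of the 3 sets. In Clone 6 ZNF558 (1.69 kb) and ZNF507 (9.59 kb) were also within 10 kb. All bounds of the Clone 6 set are multiples of 2 kb, a step larger than the distances of ZNF175 and ZNF558. The 173 members in H3K9me3 stayed at least 236 kb from the Clone 3 H3K27me3 domains and at least 53.8 kb from those of Clone 6, where ZNF780B was the nearest.

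Other genes that stand among the ZNF genes were also in the H3K9me3 domains. Of the 108 other protein-coding genes between the ends of a cluster 42 were inside (38.9%), against 6 of the 1119 outside the clusters (0.536%). Of these 48 genes inside, 20 had no gene symbol, 12 were zinc finger genes by symbol, 2 were olfactory receptor genes and 14 were others. The same 108 genes were in H3K27me3 domains at 8.33% in Clone 3, 13.0% in Clone 6 and 8.33% in the shared set. Over all other chromosome 19 genes these shares were 4.32%, 6.52% and 4.07%. Of the 24 other chromosome 19 zinc finger genes chosen by symbol 12 were inside (50.0%). These were ZFP14, ZFP82, ZFP30, ZFP28, ZIM2, ZIM3, ZIK1, ZSCAN1, ZSCAN4, ZSCAN5A, ZSCAN18 and PEG3, an imprinted gene. ZNF-named pseudogenes were inside in 16 of 19 cases (84.2%). In the domain with most members stood also VN1R2 and VN1R4, of the vomeronasal receptor family, ERVV-1 and ERVV-2, derived from retroviral envelope genes, and PPP2R1A, a scaffold subunit of protein phosphatase 2A. Of 19 genes that write, read or maintain repressive chromatin, among them TRIM28, SETDB1, UHRF1 and DNMT1, 0 were inside a domain of any set, and so were 0 of 8 genes of Polycomb repressive complex 2 and its partners. At backgrounds of 3.35% for Clone 3 H3K9me3 and 5.32% to 7.97% for H3K27me3, counts of 0 in lists of this size are near the background and show nothing particular to these genes.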

How the data were processed

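Baseline HCT116 shUHRF1 cells had been subjected to ChIP-seq, with 6 samples of chromatin pulled down for H3K9me3 or H3K27me3 (2 per clone and mark listed in the report) and 1 input. The authors trimmed read pairs with Trim Galore (0.5.0), aligned them to hg38 with bowtie2 (2.3.5), removed duplicates and called broad domains against input with Enriched Domain Detector under default settings, then kept coordinates shared by replicates. Domain bounds in the deposited files are multiples of 1 kb, and of 2 kb in the Clone 6 H3K27me3 set. The clone sets also carry 2 deposited score columns, whose scale is not given in the sources used here. A score was used only to rank domains within a set. Replicates are merged in these files, so no replicate error, interval or p-value was attached. The study's methods state a minimum sequencing depth per library, but the depth each library reached cannot be read from domain files.

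Start sites, gene bodies and coding sequence came from GENCODE 44, without the 13 genes of the mitochondrial chromosome. Finger and KRAB-like matches were counted on the translated coding sequence of the canonical transcript on hg38, in place of the RefSeq proteins planned at first. Start-site windows came from RefSeq (GRCh38.p14). Repeated words of 50 bases were counted on both strands of chromosome 19 only. The overlap procedure was tested on simulated domains. Named genes were the cluster ends, all members by domain, the 5 nearest an edge on each side, members in gaps, members in H3K27me3 or in 1 H3K9me3 set only, and members of known role. ZNF208, ZNF729, ZNF404, ZNF541 and the other genes in the domains were named after their values were seen. The members, lists and rules were chosen with earlier results of these data known. Alternatives were domains of at least 100 kb, another start site, the gene body or the 3′ end, edges moved by 10 kb, joined domains, the upper 50% by score, cluster distances of 250 kb and 1 Mb and, chosen after the data had been seen, the set without readthrough genes. Scripts used Python 3.11.15 together with pandas 2.3.3, numpy 2.4.6 and matplotlib 3.10.9.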

Additional observations from a re-analysis of the deposited data

How the results depend on the processing

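The number of members in the Clone 3 H3K9me3 domains ran from 170 to 190 across the alternatives, beside 173, and that in the shared set from 169 to 189, beside 172. The 169 came from leaving out the 3 readthrough genes, which also gave 170 in Clone 3. That setting shortens the list of members and moves no gene out of a domain. Requiring domains of at least 100 kb, or the upper 50% by score, dropped ZNF555, ZNF556 and ZNF780B. Counting any part of the gene body added 17 members, and moving the edges out by 10 kb added 13. Moving the edges in by 10 kb could change no member, because none inside lay within 10 kb of an edge. Joining domains less than 100 kb apart added ZNF57, ZNF564, ZNF552, ZNF587B and ZNF587. The count of clusters was 13 at a distance of 250 kb and 9 at 1 Mb, beside 10. The H3K27me3 counts of 1 moved most in relative terms. With domains widened by 10 kb they were 2 in Clone 3, 4 in Clone 6 and 2 in the shared set, and with joined domains 2, 5 and 2. By the 3′ end the count was 0 in Clone 6 and 0 in the shared set, because ZNF536 ends beyond those domains. No paired analysis was possible because the files hold domains already merged over replicates, and the 2 scores per domain in the clone sets are not assigned to a sample in the sources used here. Merging also leaves unknown how far edges differed between samples.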
